A study of Homo sapiens with 33 samples.

Results

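IRF4 and SOX10, both genes of melanocyte transcription factors, were mapped in CUT&Tag peak lists of HA-tagged MITF from the human melanoma line UACC-257. Both genes were chosen by their peak ranks in earlier results of the same lists, in which IRF4 stood high in WT and low in K243A, G244E and Empty, and SOX10 the other way round. Those ranks are therefore a description here. A peak was assigned to a gene when its summit lay within the RefSeq span of the gene extended by 20000 bp on each side (hg38). By this rule the pair had 946 peaks of 5707448, with 443 at IRF4 and 503 at SOX10. CUT&Tag uses an antibody, here against the HA tag, to bring a transposase to the chromatin around the tagged protein.

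The labels give all libraries the same background, namely UACC-257 cells of genotype MITF knockdown under doxycycline. The tested groups carried the MITF variants A264C, E260A, N278D, Q261A, Y253A, rep263A, G244E, K243A and rep217A. Wild-type MITF (WT) and an empty control (Empty) were their references. The labels do not say what an entry such as rep217A changes, which promoter drives the HA-tagged protein, or whether the line was 1 clone. Each of the 11 groups had 3 lists, but replicates 2 and 3 were identical in rep217A and in rep263A. Each such pair was counted as 1 library, which left 31 libraries and n = 2 in those groups. Nothing in the labels says that replicates were separate cultures, so p-values measure only the spread between these libraries, which may be technical.

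MITF is a basic helix-loop-helix leucine zipper protein that binds E-box sequences and drives the pigment genes of melanocytes. SOX10, an HMG-box factor of the neural crest, switches on MITF in melanocyte precursors and also works in Schwann cells and oligodendrocytes. IRF4, an interferon regulatory factor best known from B cells and plasma cells, acts with MITF on the tyrosinase gene in melanocytes, whose product starts melanin synthesis.

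IRF4 spans chromosome 6, 391752 to 411443, and no other RefSeq gene lies within its window. SOX10 spans chromosome 22, 37972312 to 37984555, is read from the minus strand, and lies wholly inside the span of POLR2F (37953663 to 38041915), which encodes a subunit shared by the RNA polymerases. The SOX10 window also holds C22orf23 and the microRNA genes MIR6820 and MIR4534. A peak near SOX10 therefore cannot be given to SOX10 rather than POLR2F by position. The annotation used here gives spans only, so exons and introns were not assigned.

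Promoter sequences are shown for the IRF4 start and for the POLR2F start, where the farthest downstream SOX10 site lies. Both carried peaks, strong in no list at IRF4 and in 1 list at POLR2F. The SOX10 start, whose site was called in 30 libraries and strong in 8, is not shown and was not searched. The sequences run from 250 bp before to 50 bp after the start (RefSeq, GRCh38.p14, plus strand, in lower case throughout).
IRF4 promoter, chr6:391502-391801: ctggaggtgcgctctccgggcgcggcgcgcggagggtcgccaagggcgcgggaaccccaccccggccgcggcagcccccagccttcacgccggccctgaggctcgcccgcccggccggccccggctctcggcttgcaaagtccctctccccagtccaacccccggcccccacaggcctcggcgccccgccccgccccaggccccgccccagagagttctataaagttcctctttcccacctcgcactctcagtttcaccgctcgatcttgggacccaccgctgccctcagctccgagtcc
POLR2F promoter, chr22:37953449-37953748: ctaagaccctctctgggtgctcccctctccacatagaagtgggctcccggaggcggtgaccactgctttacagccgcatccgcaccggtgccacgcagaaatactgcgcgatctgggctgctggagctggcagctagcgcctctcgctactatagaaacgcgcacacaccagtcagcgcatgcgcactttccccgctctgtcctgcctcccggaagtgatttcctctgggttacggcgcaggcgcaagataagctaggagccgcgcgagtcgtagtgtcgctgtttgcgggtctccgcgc
The E-box forms CACGTG and CATGTG and the general form CANNTG, which contains both, were searched on both strands, and none was found in either window. Of 35116 RefSeq promoters of this length, 7.26% held CACGTG, 11.1% held CATGTG and 68.7% held CANNTG. A peak overlapped the IRF4 window in 21 of 31 libraries, with a best rank of 41487. The POLR2F window was overlapped in 30 libraries, with a best rank of 5088 that came from an Empty list and rested on 2 tags.

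Each list held 81488 to 300000 peaks called on 1 library. G244E replicates 1 and 2 held exactly 300000 each. Peaks of 1 tag made up 52.8% and 58.8% of these lists and 54.7% of K243A replicate 1. They made up 0% of the other G244E and K243A lists, so peak counts within these groups are not alike. Peaks were ranked within their list by the deposited −log10 q, with rank 1 the strongest, and a rank of at most 10000 is called strong. Ranks in lists of different lengths show no change by themselves, so the whole-number pileup of tags at each summit, recovered from the deposited fold and −log10 p, is given beside them. Relative depth, taken as the commonest background pileup of a library, ranged from 0.03 in Empty to 1.49 in 1 A264C library. It averaged 0.129 ± 0.0215 in G244E, 0.178 ± 0.0584 in K243A, 1.15 ± 0.0637 in WT (SD, n = 3 each) and 0.312 ± 0.0509 in rep217A (SD, n = 2). The value for Empty is an upper limit. Depth moved with the groups described here. Over 31 libraries, which share these depths and list lengths, Spearman's rho of best rank with depth was −0.52 for IRF4 and 0.60 for SOX10. Ranks after thinning to equal depth stand among the alternatives.

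IRF4 had 39 sites, formed by joining summits within 250 bp, of which 13 were called in every library of at least 1 group and 14 in a single library. No IRF4 site was called in all 31 libraries. SOX10 had 23 sites, of which 10 were called in every library of at least 1 group, 4 in all 31 libraries and 9 in a single one. Only 3 IRF4 sites and 6 SOX10 sites were ever strong. Peaks per library in the IRF4 window numbered 10 to 13 in G244E, 6 to 15 in K243A, 9 to 12 in rep217A, 17 to 24 in WT and 5 to 7 in Empty. In the SOX10 window they numbered 10 to 15 in G244E, 12 to 16 in K243A, 13 to 15 in rep217A, 16 to 21 in WT and 9 to 13 in Empty.

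**Figure D1:**
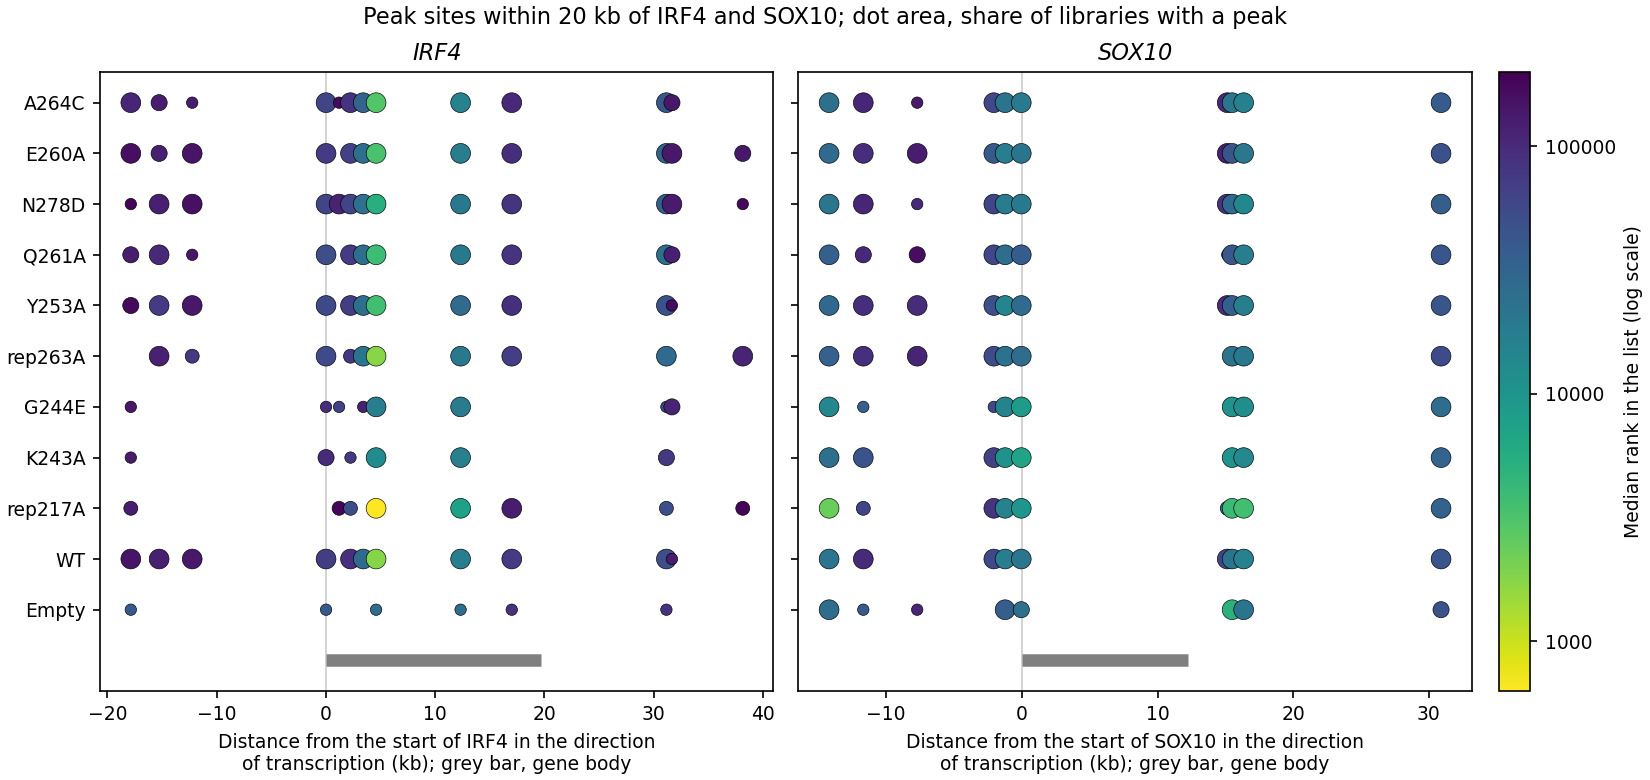
Named sites of IRF4 (left) and SOX10 (right) by distance from the gene start in the direction of transcription (kb, horizontal) and group (vertical). Dot area gives the share of libraries with a peak there and colour the median rank on a log scale. At IRF4 a single site inside the gene stands out in WT and in most variants, while the higher SOX10 sites flank the gene on both sides.

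The lead site of IRF4, the one of lowest mean rank, had its median summit at 396349, inside the gene and 4597 bp from its start. It was called in 29 of 31 libraries, missing only from Empty replicates 2 and 3, and was strong in 22. Its pileup was 15, 13 and 15 tags in G244E, 24, 24 and 28 tags in K243A, and 147 and 174 tags in rep217A. In WT it was 273, 364 and 365 tags, and in Empty it was 3 tags in replicate 1 alone. Both G244E and K243A lay below every WT library, and so did rep217A, though these groups were also shallower. In bulk libraries such as these, fewer cells with a bound site and less signal per cell cannot be told apart.

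Divided by the relative depth of the library, the same IRF4 pileups changed order. They were 116, 120 and 99.3 times the background in G244E and 182, 151 and 115 times in K243A. They were 533 and 500 times in rep217A. In WT they were 227, 336 and 309 times. The rep217A values lay above all WT values, and those of G244E and K243A below all of them. Empty replicate 1 came to at least 100 times, which rests on its 3 tags. The other 6 variants ran from 252 to 398 times, a range that overlaps WT, with rep263A highest at 384 and 398 times.

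The best rank of IRF4 followed the same course. It was 16316, 13350 and 18466 in G244E, 10110, 5913 and 16593 in K243A, 643 and 616 in rep217A, and 4711, 1562 and 1788 in WT. In Empty it was 26128, 22943 and 5088. The ranks of G244E and K243A did not overlap those of WT on the weak side, and those of rep217A did not overlap them on the strong side. Ranks in these groups chose the gene, and the share of all genes with such gaps was not counted. Empty replicate 3 broke the pattern, but its peak lay at 426364, outside the gene, was called in no other library and rested on 2 tags. It was 1 of a block of equal −log10 q that ran from place 5088 to 18760, and since tied peaks take the first place of their block, the whole block counted as strong.

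A different IRF4 site led in 4 of these libraries. The site with median summit 404081, also inside the gene at 12329 bp from the start, outranked the lead in G244E replicates 2 and 3 and in K243A replicates 2 and 3, and in no other library. Its pileup was 6, 8 and 9 tags in G244E, 10, 23 and 17 in K243A, 28 and 34 in rep217A and 75, 81 and 70 in WT. The lead held 1.62 to 2.50 times the tags of this second site in G244E, 1.04 to 2.40 times in K243A and 5.12 to 5.25 times in rep217A. It held 3.64 to 5.21 times in WT, and 2.92 to 5.74 times over the other 6 variants. This ratio is taken within a library and so does not use the estimated depth. The G244E and K243A values lay below those of all WT libraries and of all 6 other variants, although G244E rests on at most 15 tags per site.

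Over depth, the second IRF4 site ordered the groups differently from the lead. It stood at 46.5, 74.1 and 59.6 times the background in G244E, 75.8, 145 and 69.7 times in K243A and 101 and 97.7 times in rep217A, against 62.4, 74.9 and 59.3 times in WT. G244E overlapped WT here, and 1 K243A library stood apart on the high side.

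The choice of column changed which IRF4 site led. By the deposited fold enrichment, the second site exceeded the lead in 26 of the 29 libraries where both were called. In WT the lead had a fold of 9.46, 12.1 and 11.8, while the second site had 14.6, 14.6 and 14.4. Recovered local backgrounds were 28.0, 29.1 and 30.0 tags at the WT lead and 4.20, 4.62 and 3.93 tags at the second site. The fold is taken over that local background. So the site with fewer tags had the higher fold.

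Weaker IRF4 sites were seen mainly in the deeper libraries. The promoter site, with its median summit at 391771 and summits from 391744 to 392367, was called in 24 libraries. Its best rank of 40174 came from an Empty list. No Empty or K243A peak of this site overlapped the promoter window shown above, which ends at 391801. Its pileup was 44 to 46 tags in rep263A and 89, 61 and 73 tags in WT. No rep217A library had a peak there, although rep217A had the highest IRF4 ranks of all groups. A site at 395171, 3419 bp from the start, was called in 21 libraries, and one at 422910, beyond the far end of the gene, in 25. Neither was ever strong.

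**Figure D2:**
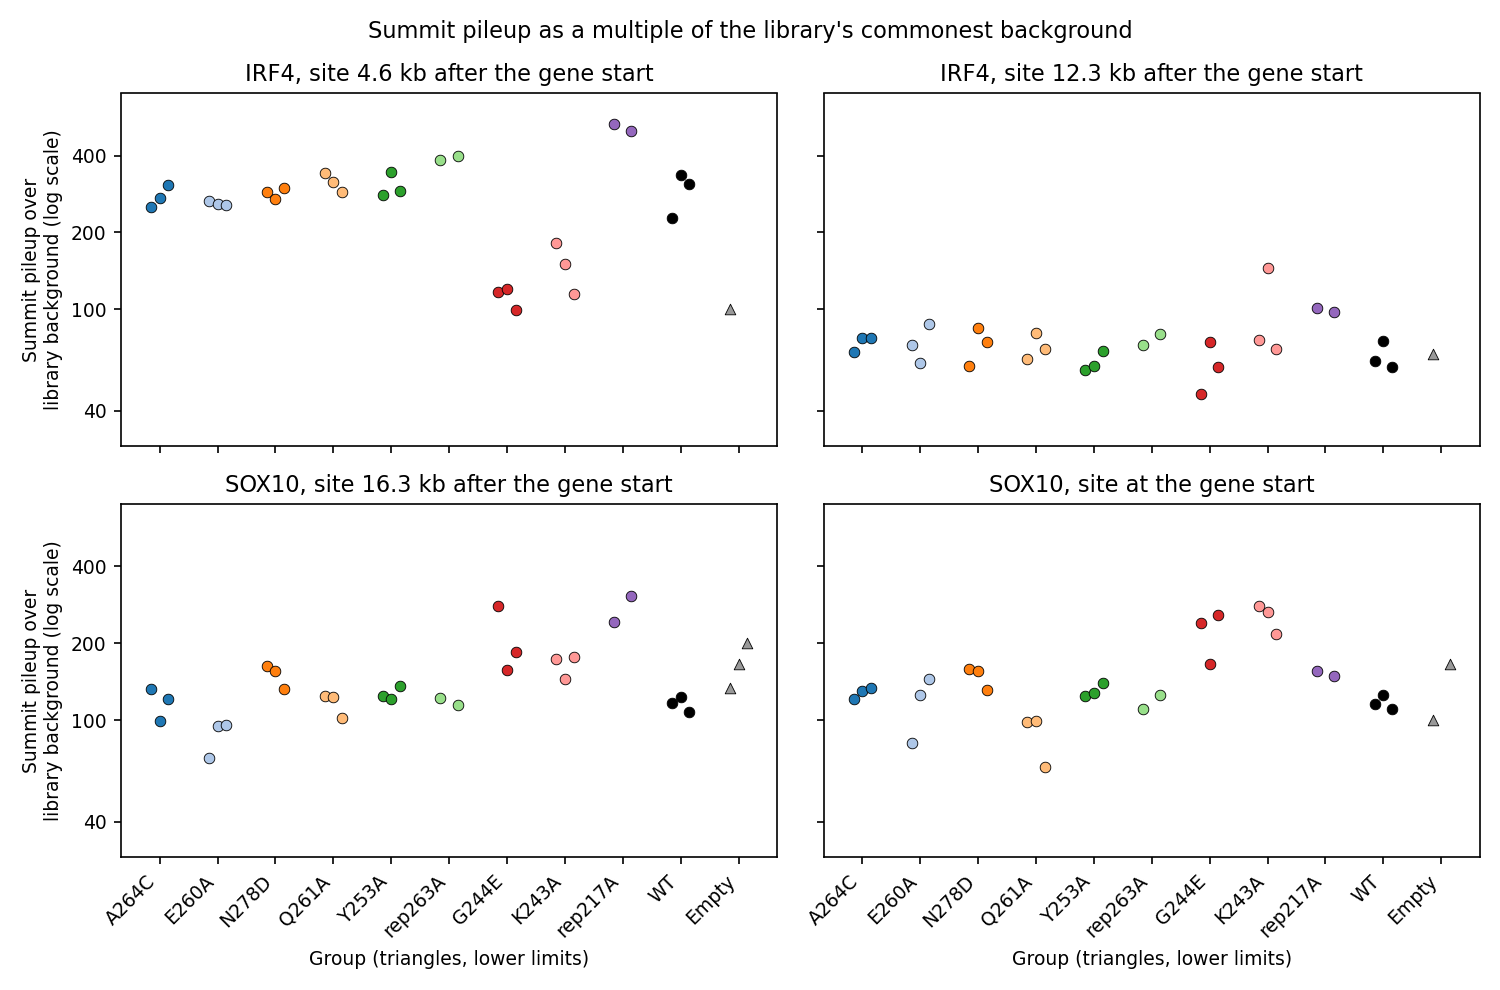
Summit pileup as a multiple of the library's commonest background (log scale, vertical) at the lead and second sites of IRF4 (top) and at the lead and start sites of SOX10 (bottom), with 1 point per library and groups along the horizontal axis. Triangles mark Empty, where the background is an upper limit and the value a lower one. At the IRF4 lead, G244E and K243A lie below WT and rep217A above it. At the SOX10 lead all 3 variants lie above WT, as does N278D.

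SOX10 had no single dominant site within its window. Its lead site, at 37968208, lay downstream of the gene, 16347 bp from its start, with a companion at 37969056, 15499 bp from the start. Others lay at 37985794, 1239 bp upstream of the start, at 37984600, 45 bp upstream, and at 37998768, 14213 bp upstream. These 5 sites traded places as the best of the window. WT led with the downstream pair, K243A with the start site in 2 of 3 libraries, and rep217A replicate 1 with the site 14213 bp upstream.

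At the SOX10 lead the pileup was 36, 17 and 28 tags in G244E, 23, 23 and 43 in K243A and 67 and 107 in rep217A. It was 140, 133 and 127 tags in WT and 4, 5 and 6 tags in Empty. Over depth the order turned round, to 279, 157 and 185 times the background in G244E, 174, 145 and 176 times in K243A and 242.8 and 307 times in rep217A, against 117, 123 and 108 times in WT. All 8 libraries of these variants lay above all 3 WT libraries. The 6 other variants ran from 70.9 to 163 times, and N278D, at 163, 155 and 132 times, also lay above WT. Empty stood at 133, 167 and 200 times or more, again from a handful of tags. By the deposited fold, taken over the local background, all 3 variants overlapped WT. The fold was 5.47 to 7.33 in G244E, 4.45 to 6.05 in K243A and 6.78 to 8.86 in rep217A. It was 5.71 to 7.03 in WT and 2.93 to 4.73 in Empty.

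At the SOX10 start site, 45 bp from the annotated start, K243A had 37, 42 and 53 tags and WT had 139, 136 and 130. That is 217 to 280 times the background in K243A, against 116, 126 and 110 times in WT. G244E stood at 240, 167 and 258 times. Both variants lay above WT here, and rep217A, at 156 and 149 times, lay between. The 6 other variants ran from 65.5 to 159 times, and N278D, at 159, 155 and 131 times, also lay above WT.

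At the site 14213 bp upstream of SOX10, rep217A stood above every other variant and WT over depth. It had 89 and 70 tags in rep217A, or 322 and 201 times the background, and its ranks there were 1432 and 3263. In WT it had 83, 82 and 79 tags, or 69.1, 75.8 and 66.9 times the background. G244E stood at 85.3, 130 and 113 times and K243A at 75.8, 132 and 82.0 times. The rep217A libraries thus held about as many tags as WT libraries of more than 3 times their depth. Over the 6 other variants the site ran from 40.3 to 93.8 times.

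The best SOX10 rank was 5499, 12063 and 5177 in G244E, 6099, 6226 and 8038 in K243A and 1432 and 2103 in rep217A. It was 16007, 15903 and 15182 in WT and 2917, 5027 and 3871 in Empty. All 3 variants and Empty ranked SOX10 above every WT library. Here too, the ranks chose the gene, and the share of all genes with such gaps was not counted. The 3 Empty ranks came from 3 different sites and rested on 5, 6 and 6 tags, with −log10 q of 3.41, 2.27 and 2.24. The WT peaks of worse rank had 140, 133 and 151 tags and −log10 q of 68.0, 63.1 and 68.4. The lowest −log10 q of a strong peak was 1.63 to 1.87 in Empty lists and 92.2 to 100 in WT lists.

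**Figure D3:**
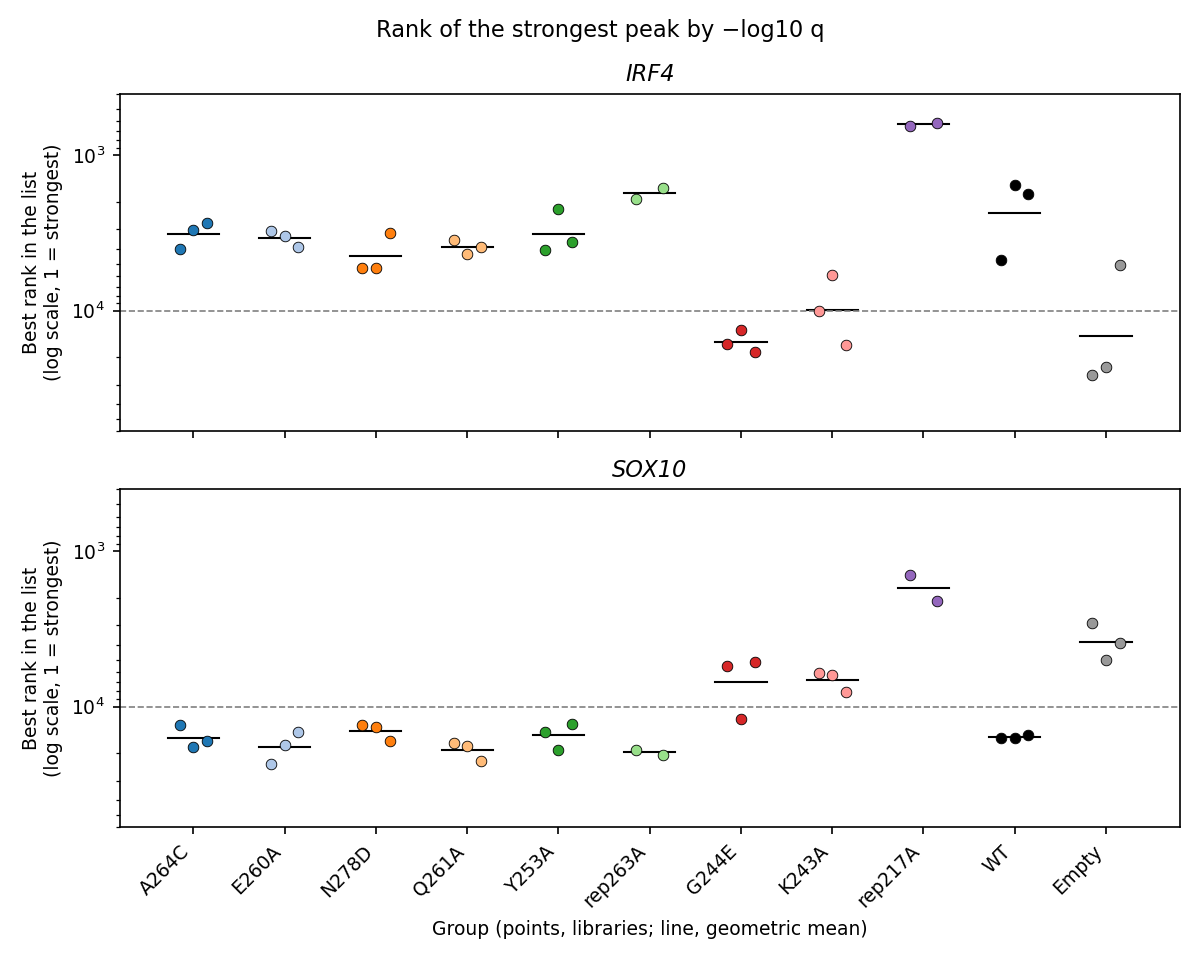
Best rank by −log10 q within the window of IRF4 (top) and SOX10 (bottom), on a reversed log axis, with groups along the horizontal axis. Points are libraries, lines are geometric means and the dashed line marks rank 10000. For IRF4, 8 groups lie wholly above the dashed line, and for SOX10 only K243A, rep217A and Empty do.

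Ordered by geometric mean of the best rank, IRF4 ran rep217A (629), rep263A (1760), WT (2361), Y253A (3199), A264C (3202), E260A (3399), Q261A (3895), N278D (4465), K243A (9973), Empty (14502) and G244E (15903). Neighbours in this order overlapped, except rep217A with rep263A and N278D with K243A. For SOX10 the order was rep217A (1735), Empty (3843), K243A (6733), G244E (7003), N278D (14325), Y253A (15355), WT (15693), A264C (15902), E260A (18242), Q261A (19083) and rep263A (19766). Here rep217A did not overlap Empty, Empty did not overlap K243A, and G244E did not overlap N278D. The other neighbours did not differ beyond their spread. Ranked by fold, the IRF4 means were 14692 in G244E, 8103 in K243A, 5151 in rep217A, 12547 in WT and 12886 in Empty, so that WT and Empty stood close together. By −log10 q, rep217A was first for both genes, and rep263A was second for IRF4 and last for SOX10.

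Since these levels chose the genes, they are set beside the background without a reading. A strong peak in every library was found for 33.5% of genes in G244E, 33.0% in K243A, 32.5% in rep217A, 35.8% in WT and 37.7% in Empty. A strong peak was present in every Empty and no WT library for 10.4% of 19974 protein-coding genes, SOX10 among them. The reverse, every WT and no Empty library, held for 0.696% of genes. IRF4 was not among them, because of the 2-tag peak of Empty replicate 3. With tied peaks set to the last place of their block, these shares became 1.78%, with SOX10, and 4.68%, with IRF4. Of genes strong in every WT library, 6.42% were strong in no G244E library, as IRF4 was. Of genes strong in no WT library, 2.70% were strong in every K243A library and 6.75% in every rep217A library, as SOX10 was. The values next to the limit of 10000 were 5913 inside and 10110 outside for IRF4, both from K243A. For SOX10 they were 8038, from K243A, inside, and 12063, from G244E, outside. Next to the window edge, the nearest IRF4 summits lay 678 bp inside and 602 bp outside, and the nearest SOX10 summits 1025 bp inside and 434 bp outside, all of rank above 100000.

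The other 6 variants had no part in the choice, and in them IRF4 and SOX10 kept the WT order within the 20000 bp window. IRF4 ranked above SOX10 in all 17 libraries, with a SOX10 rank 2.47 to 12.7 times that of IRF4 (median 5.22). With a window of 50000 bp the order turned in all 17, with SOX10 above IRF4. Within 20000 bp, IRF4 was strong in every library of all 6 and SOX10 in none. Of 19974 genes, 11266 were strong in no WT library, so a lack of strong peaks is not particular to SOX10. The share strong in none was not counted for the 6 variants. A strong peak in every library was found for 36.5% of all genes in A264C, 33.4% in E260A, 31.9% in N278D, 31.3% in Q261A, 31.9% in Y253A and 34.9% in rep263A.

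IRF4 ranks were 4008, 3006 and 2725 in A264C, 3066, 3294 and 3887 in E260A, and 5297, 5288 and 3177 in N278D. They were 3524, 4319 and 3882 in Q261A, 4099, 2224 and 3592 in Y253A, and 1915 and 1617 in rep263A. The rep263A libraries lay on the strong side of all 15 others, and N278D held the weakest pair. Across the 6 variants the IRF4 rank differed (limma moderated F of 4.64, adjusted p = 0.0129), as it did for 44.6% of the 17690 genes tested. The log2 rank of rep263A was −1.03 (SE 0.242) relative to the mean of the other 5, with an adjusted p of 0.00481. Ranks that were lower in rep263A by this test were found for 3.93% of genes. The 2 rep263A libraries were also the shallowest of the 6 variants, with relative depths of 0.427 and 0.487. The others ran from 0.697 to 1.49. With all thinned to the shallowest of them, the rep263A difference was −1.15 (limma, adjusted p = 0.00759). At full depth N278D was weaker by 0.58 (SE 0.205) without passing (adjusted p = 0.0618), and the other 4 variants did not pass either. Without N278D replicate 3 the N278D difference was 0.82 and passed (adjusted p = 0.0174). Over all genes, weaker ranks passed for 8.33% in A264C, 6.08% in E260A, 8.05% in N278D, 4.83% in Q261A, 6.49% in Y253A and 3.48% in rep263A. Stronger ranks passed for 16.7% in A264C, 10.7% in E260A, 5.65% in N278D, 3.45% in Q261A and 4.26% in Y253A. Ranked by fold enrichment, the IRF4 difference was lost (adjusted p = 0.0975), as was the lower rank in rep263A (log2 difference 0.02, adjusted p = 0.984). By fold, however, the best IRF4 peak was mostly not the lead. Within rep263A it lay at 396349 in replicate 1 and at 404094 in replicate 2. The fold ranking thus does not test the lead site. Without rep263A replicate 2 the adjusted p across variants was 0.109, and the log2 rank of rep263A relative to the others was −0.91 (adjusted p = 0.0753).

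SOX10 ranks were 13118, 18297 and 16754 in A264C, 23515, 17639 and 14634 in E260A, and 13077, 13550 and 16591 in N278D. They were 17257, 17945 and 22442 in Q261A, 14654, 19103 and 12932 in Y253A, and 19009 and 20554 in rep263A. All 6 groups overlapped at least 1 other. No difference passed (limma moderated F of 1.11, adjusted p = 0.456), nor did any variant against the mean of the other 5. The largest such difference was −0.30 (SE 0.188) in N278D. The ratio of the SOX10 to the IRF4 rank, taken within each list, did not pass either (permutation F test, p = 0.0698, 100000 resamples), although its highest values, 9.93 and 12.7, were those of rep263A.

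**Figure D4:**
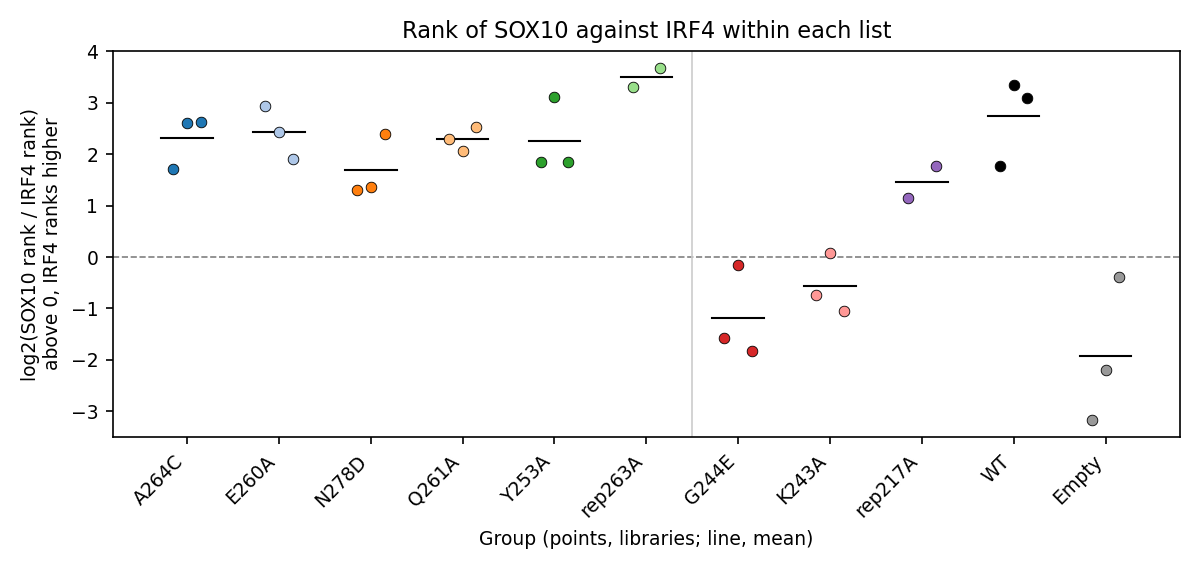
Log2 ratio of the SOX10 to the IRF4 best rank within each list (vertical), with groups along the horizontal axis. Points are libraries, short lines are group means, and values above 0 mean that IRF4 ranks higher. All libraries of the 6 variants left of the grey line lie above 0, as do rep217A and WT, while G244E and Empty lie below 0 and K243A straddles it.

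Farther upstream, SOX10 had sites that did not follow its pattern within the window. The strongest had its median summit at 38019418, 34863 bp upstream of the SOX10 start and inside the span of POLR2F. It was looked at because the 50000 bp window gave other SOX10 ranks, so it was chosen after its values were seen. This site was called in 30 of 31 libraries and was strong in 25. Its pileup was 28, 21 and 32 tags in G244E, 68, 68 and 111 in K243A and 165 and 231 in rep217A. It was 591, 552 and 553 tags in WT, and 3 tags each in Empty replicates 1 and 3. WT thus had more tags here than at any other site described.

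The ranks of this upstream site were 14560, 19660 and 13384 in G244E, 1721, 2779 and 1508 in K243A and 785 and 369 in rep217A. They were 640, 692 and 845 in WT and 44639 and 29131 in Empty. Over depth it stood at 217, 194 and 212 times the background in G244E, 515, 428 and 455 times in K243A and 598 and 664 times in rep217A, against 492, 510 and 468 times in WT. G244E lay far below WT, while K243A overlapped WT and rep217A lay above it. That is the order of the IRF4 lead, except that K243A was not below WT. By the deposited fold K243A, at 8.57, 7.56 and 8.10, did lie below WT, at 10.5, 10.1 and 9.70. The rep217A folds, 8.46 and 10.2, overlapped WT.

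A second upstream site, at 38033884 and 49329 bp from the SOX10 start, was strong in 28 of 31 libraries. It stood at 370 to 426 times the background in G244E, 547 to 615 times in K243A and 218 to 246 times in rep217A, against 378 to 434 times in WT. Here, over depth, rep217A was low, K243A was high and G244E overlapped WT. By the deposited fold G244E, at 4.93, 3.92 and 5.25, lay below WT, at 6.36, 6.76 and 5.95. The K243A folds, 5.69, 5.93 and 6.36, overlapped WT, and those of rep217A, 4.80 and 4.77, stayed low. Another, at 38017724 and 33169 bp upstream, stood at 252 to 426 times in G244E, 270 to 326 times in K243A, 287 to 388 times in rep217A and 239 to 262 times in WT. So neighbouring sites upstream of SOX10 ordered the variants differently.

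**Figure D5:**
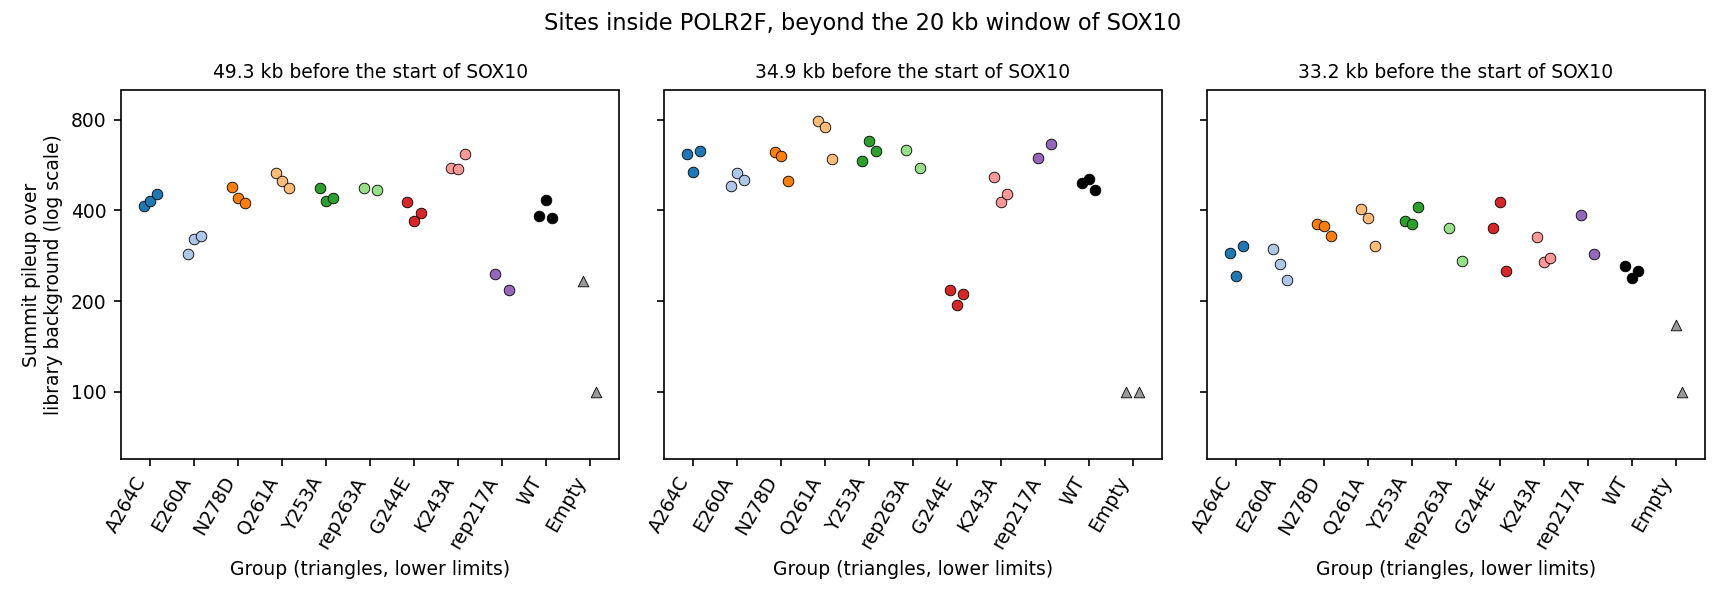
Summit pileup as a multiple of the library's commonest background (log scale, vertical) at 3 sites upstream of SOX10, with 1 point per library and groups along the horizontal axis. Triangles mark Empty, as lower limits. At the site 34863 bp upstream (middle) G244E stands below all other variants and WT, and at the site 49329 bp upstream (left) rep217A does.

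With the window of 50000 bp, SOX10 ranked above IRF4 in 30 of 31 libraries, rep217A replicate 1 being the exception. Its best rank became 2012 to 4821 in G244E, 1216 to 2646 in K243A, 369 to 785 in rep217A, 640 to 845 in WT and 2917 to 5027 in Empty. WT then stood on the strong side of Empty, the reverse of the order within 20000 bp. Among the 6 variants the SOX10 rank now differed (limma moderated F, adjusted p = 0.0146), as for 50.0% of 18634 genes. At IRF4 the wider window changed no library's best rank.

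Patterns like those of IRF4 and SOX10 over the 31 libraries were sought among the genes with a peak in their window in every list, as Spearman's rho of the best rank, given with no test. Closest to IRF4 among 15070 genes were LSM5 and AVL9, neighbours on chromosome 7 with overlapping windows, each with rho of 0.81. They were followed by ATP8B1 (0.79) and SETBP1 (0.78). Closest to SOX10 among 15067 genes were NES (0.88), which encodes the intermediate filament nestin, RNPS1 (0.85), SPTBN5 (0.85), JDP2 (0.84) and EPS8L2 (0.83). Between IRF4 and SOX10 themselves rho was −0.48. These values share the depths of the libraries.

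Other genes of the IRF4 and SOX10 families and of the melanocyte lineage were counted by the same rule. Of 15 lineage factors, 7 were strong in every WT library, among them MITF itself and PAX3, and 6 in every Empty library. Over all genes, 35.8% were strong in every WT library and 37.7% in every Empty library. Because of ties, each Empty list held 18760 to 24759 strong peaks, against 10000 in each WT list. The lineage list had 8 genes strong in every rep217A library, 7 in every G244E library and 6 in every K243A library. The shares over all genes were 32.5% in rep217A, 33.5% in G244E and 33.0% in K243A. Of 8 other IRF genes, 2 were strong in every WT library, IRF3 and IRF9, and 3 in every Empty library, the same pair with IRF1. Of 7 other SOX genes, 4 were strong in every WT library, namely SOX5, SOX6, SOX8 and SOX13, and 2 in every Empty library, SOX5 and SOX6. SOX4, SOX5 and SOX9 stand in both this and the lineage list. The IRF counts thus lie near or below the share over all genes.

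Peak lists hold no RNA, so cell identity was not checked by expression. Of 8 melanocyte marker genes, 5 were strong in every G244E library, 7 in every K243A library, 6 in every rep217A library, 8 in every WT library and 6 in every Empty library. Of 6 Schwann cell and oligodendrocyte markers, 5 were strong in every G244E library, 5 in every K243A library, 6 in every rep217A library, 5 in every WT library and 3 in every Empty library. Of 6 B cell and plasma cell markers, the count was 1 each in G244E, K243A and rep217A, 3 in WT and 2 in Empty. The shares over all genes are those given for the lineage list. They were 33.5% in G244E, 33.0% in K243A, 32.5% in rep217A, 35.8% in WT and 37.7% in Empty.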

How the data were processed

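The authors deposited 1 narrowPeak file for each MITF CUT&Tag library, in hg38 coordinates. For base calling, alignment and peak calling, Bowtie2 2.3.4.3, bcl2fastq 2.20.0.422 and MACS2 are named per the submitters' processing notes. No MACS2 version is given there. Each peak carries the authors' fold enrichment, a ratio over local background, and the deposited −log10 p and −log10 q of its summit. These are the authors' own values and were used within a list. No list held a −log10 p under 2.00. Whole-number pileups were solved from fold and p under the MACS2 formulas and met the deposited values within 0.01 for 100% of peaks with −log10 p below 12.

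Chromosomes 1 to 22 and X were kept. Genes were the 19974 protein-coding RefSeq genes. The log2 best rank of every gene with a peak in all 17 libraries of the 6 variants was fitted with limma 3.58.1 (R 4.3.3). P-values were adjusted by Benjamini and Hochberg over all genes, and for single variants over all genes and 6 contrasts, at a threshold of 0.05. Steps were tested on simulated data. The permutation test used seed 1 and Python 3.11.15 with scipy 1.17.1. The members, gene lists and tests were chosen with earlier results of these data known, so WT, Empty, K243A, G244E and rep217A are described without a test. Sites named were those called in every library of at least 1 group. Alternatives were another ranking, window, overlap rule, filter, depth, block and library set.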

Additional observations from a re-analysis of the deposited data

How the results depend on the processing

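For the 6 variants, the IRF4 difference kept its side of the threshold under 10 of 11 alternative settings, with adjusted p (limma) from 0.0131 upwards. The exception was ranking by fold (0.0975). Leaving out 1 library at a time gave 0.00435 to 0.109, and only rep263A replicate 2 ended the call. SOX10 did not pass under 9 of 10 settings and passed with the window of 50000 bp (0.0146). Leaving out 1 library gave 0.332 to 0.618. The gene span alone gave SOX10 no peak in some libraries, so neither that test nor the ratio could be had there. The ratio of ranks, at a permutation p of 0.0698, passed with the window of 50000 bp (0.0270) and after thinning to the shallowest variant library (0.0488). It ranged from 0.0211 to 0.281 with 1 library left out, passing without N278D replicate 3 or Y253A replicate 2. The cause of these changes was not tested. The wider window takes in other sites, and by fold the best IRF4 peak was mostly not the lead.

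Same-numbered libraries showed little shared deviation, with a median correlation of 0.0083, a highest of 0.31 and 3 of 30 pairs over 0.1. For different numbers the median was −0.0049, the highest 0.15, and 5 of 60 pairs were over 0.1. These correlations cannot show whether the numbers mark shared cultures or batches. With a replicate block the adjusted p was 0.0138 for IRF4 and 0.492 for SOX10, and the permutation p of the ratio was 0.127.

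Depth limits the group levels. Thinned to the shallowest library other than Empty, added after seeing the data, the geometric mean rank of IRF4 was 16239 in G244E, 9590 in K243A, 669 in rep217A and 3551 in WT. That of SOX10 was 7351 in G244E, 6159 in K243A, 1931 in rep217A and 10512 in WT. Thinned to the depth limit of Empty, SOX10 stood at 7927 in WT, with Empty at 3843. Each order was as at full depth. Tied peaks at the last place of their block, also added after seeing the data, moved the mean IRF4 rank in Empty to 27277, from ties alone. A group mean of the log2 rank is called moved when it shifted by at least the SD between its libraries. Of 22 group means, 19 moved when ranked by fold, among them SOX10 in WT (29165) and in Empty (2363). Thinning to the shallowest library other than Empty moved 10 and left 10. Thinning to the depth limit of Empty moved 13 and left 9. Scaled by list length to the longest list, 20 of 22 moved, and IRF4 then stood at 22934 in G244E and 39029 in Empty. Scaling raises every rank number in a shorter list, so these moves follow from list length alone. The adjusted p of N278D for IRF4 passed in 1 of 28 alternatives, with a range of 0.0174 to 0.342.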
